A study of Mus musculus with 9 samples.

Results

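The genes described here encode 9 cell surface receptors of myeloid cells: the chemokine receptors Ccr1, Cx3cr1 and Cxcr4, the atypical chemerin receptor Ccrl2, the complement peptide receptors C3ar1 and C5ar1, the formyl peptide receptors Fpr1 and Fpr2, and Gpr84, a receptor for medium-chain fatty acids. They are 9 of the 28137 genes with a value, found by matching each listed symbol to its Ensembl identifier in GENCODE M21. The list was chosen by the FPKM values of these genes in the RAB6A siRNA and NC libraries, which were already known, so their change under RAB6A siRNA is given below as a description without a test. RNA was sequenced from RAW264.7 cells, a mouse monocyte and macrophage leukemia cell line, in 3 groups of 3 libraries labeled NC siRNA (a control siRNA), SFRP2 siRNA and RAB6A siRNA. Per the labels, all 9 samples received 60 nM siRNA with a lipid reagent for 6 h and complete medium for 12 h. They also received 100 ng/ml lipopolysaccharide (LPS), with RNA taken after 24 h of polarization. Every group was therefore LPS-treated, and no value without LPS was analysed here. The title of each library ends in 6H, and the titles do not say which step this time refers to. The study's methods differ from the labels in the culture medium, the transfection reagent, the siRNA dose and the schedule, and add IFN-γ to the LPS for these cells. The SFRP2 siRNA libraries are titled siRNA-1 to siRNA-3, and it is not stated whether each received a different siRNA, so their spread may include differences between siRNAs. The study used the comparison of SFRP2 siRNA with NC to examine how inflammatory macrophages respond to suppression of SFRP2, a secreted modulator of Wnt signaling. Whether SFRP2 was lost cannot be seen here, as Sfrp2 RNA had 2 to 4 reads in every library. RAB6A is a small GTPase of Golgi trafficking, and no purpose is stated for its siRNA.

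All 9 belong to the family of G protein-coupled receptors, with 7 membrane helices. Ligand binding mostly activates Gi proteins, whose Gβγ subunits turn on phospholipase C β and PI3Kγ and steer cell migration through Rac and actin. G protein-coupled receptor kinases, arrestins and RGS proteins then switch the signal off. In macrophages this class guides cells to wounds and infection: CCR1 binds CCL3, CCL5 and related chemokines, CX3CR1 binds the membrane-bound chemokine CX3CL1, C3AR1 and C5AR1 bind the anaphylatoxins C3a and C5a, and FPR1 and FPR2 bind N-formyl peptides from bacteria and mitochondria. CCRL2 holds chemerin at the cell surface without G protein signaling. Gpr84 is widely known as a gene induced by LPS.

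In GENCODE M21 on GRCm38, the whole coding sequence of 7 of the 9 genes lies in 1 exon, and C5ar1 and Cxcr4 have 2 coding exons. Among 10150 tested protein-coding genes, 5.25% have 1 coding exon and the median is 9. Ccr1 (chr9:123962124-123968692, minus strand), Cx3cr1 and Ccrl2 share a chromosome, with Ccr1 lying 3.89 Mb from Cx3cr1 and 12.9 Mb from Ccrl2. Fpr1 and Fpr2 lie on opposite strands of chromosome 17 with a gap of 3.88 kb. The 250 bases before the RefSeq start (GRCm38.p6) are printed for Ccr1 and C3ar1, which differed strongly between the RAB6A siRNA and NC libraries, for Fpr2 as 1 of the neighboring formyl peptide receptors, and for Ccrl2, which differed least. They are chr9:123968693-123968942 (minus strand), chr6:122856158-122856407 (minus strand), chr17:17887574-17887823 (plus strand) and chr9:111057519-111057768 (minus strand, 1 of 3 RefSeq starts), each written 5′ to 3′ on the strand of the gene. Capitals mark matches on either strand to TGANTCA (an AP-1 type motif), AGGAAG (an ETS type motif), GGG and CC parted by any 5 bases (an NF-κB type motif) and TATAAA (the TATA box), and overlapping matches run together.
Ccr1: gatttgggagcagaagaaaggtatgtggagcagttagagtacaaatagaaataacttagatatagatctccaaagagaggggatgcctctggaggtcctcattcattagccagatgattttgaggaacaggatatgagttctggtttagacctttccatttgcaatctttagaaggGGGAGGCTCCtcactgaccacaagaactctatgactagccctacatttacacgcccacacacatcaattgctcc
C3ar1: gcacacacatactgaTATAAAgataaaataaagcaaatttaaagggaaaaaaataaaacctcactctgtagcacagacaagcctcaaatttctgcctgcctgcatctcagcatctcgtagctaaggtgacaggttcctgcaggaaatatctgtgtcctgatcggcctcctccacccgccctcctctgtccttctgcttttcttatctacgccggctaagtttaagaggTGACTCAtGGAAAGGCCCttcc
Fpr2: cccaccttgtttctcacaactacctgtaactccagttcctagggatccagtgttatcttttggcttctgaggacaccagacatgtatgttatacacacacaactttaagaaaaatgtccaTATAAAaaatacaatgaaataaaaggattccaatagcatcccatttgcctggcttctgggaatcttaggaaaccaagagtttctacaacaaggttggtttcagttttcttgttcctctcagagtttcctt
Ccrl2: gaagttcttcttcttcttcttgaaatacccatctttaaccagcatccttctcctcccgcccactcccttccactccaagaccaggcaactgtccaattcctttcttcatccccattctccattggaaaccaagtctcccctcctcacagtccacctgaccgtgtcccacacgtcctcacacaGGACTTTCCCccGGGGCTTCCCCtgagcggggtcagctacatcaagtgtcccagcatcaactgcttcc

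The matches were spread unevenly over the 9 genes. TGANTCA was found before C3ar1 alone, 22 bases upstream of its start, and in 6.87% of 27025 promoters of the same length. The NF-κB type motif was found before 4 genes (Ccr1, Cx3cr1, Ccrl2 and C3ar1) and in 45.4% of all promoters, with 3 matches before Ccrl2 at 68, 56 and 55 bases. AGGAAG was found before C5ar1 and Gpr84, with 3 matches each, and in 29.2% of all promoters. TATAAA was found before 4 genes (Cxcr4, C3ar1, Fpr1 and Fpr2) and in 13.0% of all promoters, and only before Cxcr4 did it lie within 32 bases of the start. The RefSeq start lies 1583 bases from the GENCODE gene start for Cx3cr1, 202 for C5ar1 and 174 for Gpr84, so windows at other starts of these genes were not searched. No motif was found before all of the 5 genes that differed most. Among them, TATAAA was found before C3ar1, Fpr1 and Fpr2, and the NF-κB type motif before Ccr1 and C3ar1. A match is a string of letters and no evidence of binding.

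Depth and identity of the libraries were examined first. Reads in named genes, recovered from the FPKM values and gene lengths, ranged from 32297214 to 46544869 per library. The macrophage markers Adgre1, Csf1r, Cd68, Itgam, Spi1, Lyz2, Cd14 and Fcgr3 were present in every group, with group means from 23.1 to 1943 FPKM. Of 9 markers of other cell types, 4 had a value, with summed levels of 0.960 to 1.68 FPKM in NC, 1.09 to 1.78 in SFRP2 siRNA and 1.40 to 1.81 in RAB6A siRNA libraries. The LPS-induced genes Nos2 and Acod1 reached 340.1 and 2458 FPKM in NC. Sfrp2 itself had 2 to 4 reads in every library, too few to check the SFRP2 siRNA label. Rab6a was lower in RAB6A siRNA than in NC libraries (20.7 ± 0.445 against 25.7 ± 1.48 FPKM, mean ± SD, n = 3; log2 fold change -0.31 ± 0.06 SE; limma adjusted p = 0.0024). The labels do not say that libraries of a group came from separate cultures or experiments, so that p-values measure the spread between these libraries. The RAB6A siRNA libraries differed from NC at most genes: limma called 74.1% of 12712 genes. Any handling that the RAB6A siRNA libraries shared cannot be told apart from the siRNA.

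In the NC libraries the receptors spanned a wide range of levels in FPKM (fragments scaled to gene length and library size, a scale that can be compared between genes). C3ar1 was the highest at 188.3 ± 10.6 FPKM, followed by Gpr84 at 30.7 ± 0.712, Cx3cr1 at 21.2 ± 0.943, Ccrl2 at 14.0 ± 0.575, C5ar1 at 7.51 ± 0.514, Ccr1 at 3.79 ± 0.644, Fpr2 at 2.33 ± 0.686 and Fpr1 at 1.03 ± 0.204. No neighbors in this order overlapped between libraries. C3ar1 alone made up 70.0% ± 1.68 of the summed FPKM of the 9 genes. The order in the SFRP2 siRNA libraries was the same, again without overlap. Cxcr4, the receptor for CXCL12, had 2 reads in 1 NC library and none in the other 8, below the 0.0352 to 0.0507 FPKM that 3 reads are worth. It was not detectable at this depth, it entered no test and no fold change is given.

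**Figure D1:**
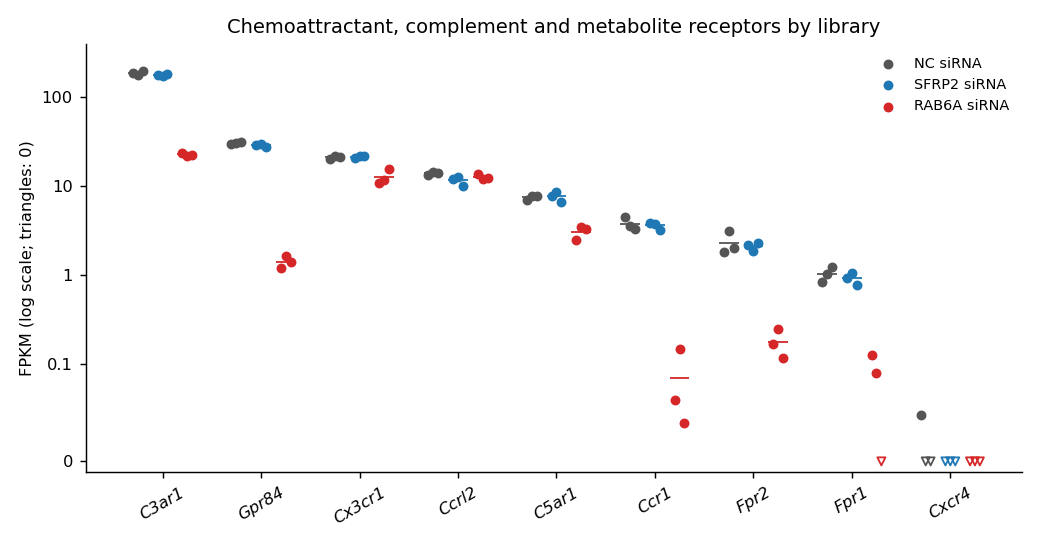
FPKM of each receptor gene (log scale) in the 3 NC, 3 SFRP2 siRNA and 3 RAB6A siRNA libraries. Points are libraries, open triangles are libraries at 0, and lines are group means where no library is at 0. The RAB6A siRNA points lie below the others for 7 genes and among them for Ccrl2.

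The chemokine receptors differed widely in their distance from NC under RAB6A siRNA. Ccr1 had 4.51, 3.56 and 3.29 FPKM in the NC libraries, 3.91, 3.79 and 3.23 in the SFRP2 siRNA libraries, and 0.0388, 0.149 and 0.0216 in the RAB6A siRNA libraries. The last rest on 2 to 16 reads, against 396 to 532 reads in NC, so Ccr1 was near the limit of detection there. Its group mean was 54.2 times higher in NC, and its log2 fold change of -4.58 ± 0.31 (FPKM + 0.1) was the fifth lowest of 12712 genes. Because of the added 0.1, this value ran from -2.15 with 1 added to -5.94 when the recovered reads were fitted with limma voom. In a bulk sample, fewer cells carrying a receptor and less RNA per cell cannot be told apart.

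Cx3cr1, the fractalkine receptor of monocytes and tissue macrophages, differed far less from NC. Its levels were 20.1, 22.0 and 21.3 FPKM in NC, 20.7, 21.8 and 21.8 in SFRP2 siRNA, and 10.8, 11.7 and 15.5 in RAB6A siRNA libraries. The RAB6A siRNA libraries lay below all others but also varied most, and RAB6A siRNA replicate 3 was the highest of them. The log2 fold change was -0.75 ± 0.13, a 1.67-fold difference of means, and it was -0.43 after correction for GC content and gene length. The 2 receptors therefore separated within the RAB6A siRNA libraries: the ratio of Cx3cr1 to Ccr1 was 4.46 to 6.48 in NC and at least 78.6 in each RAB6A siRNA library.

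Ccrl2 was the tested receptor that differed least from NC. It had 13.4, 14.5 and 14.2 FPKM in NC and 13.7, 11.9 and 12.4 in RAB6A siRNA libraries, so that the groups overlapped. Its log2 fold change was -0.14 ± 0.07, and it turned to 0.077 after correction for GC content and gene length. Ccrl2 was thereby level with Cx3cr1 in the RAB6A siRNA libraries, where the 2 overlapped.

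Both complement receptors were lower under RAB6A siRNA, C3ar1 more so than C5ar1. C3ar1, the receptor of the C3 fragment C3a, had 189.6, 177.1 and 198.2 FPKM in NC, 177.6, 174.6 and 184.7 in SFRP2 siRNA, and 23.9, 22.0 and 22.5 in RAB6A siRNA libraries. With at least 3169 reads in each library, C3ar1 had the most reads of the 9 genes in every library, and its log2 fold change was -3.04 ± 0.06, an 8.25-fold difference of means. C5ar1, the main receptor of C5a, had 6.92, 7.83 and 7.79 FPKM in NC, 7.75, 8.67 and 6.63 in SFRP2 siRNA, and 2.47, 3.50 and 3.28 in RAB6A siRNA libraries. Its log2 fold change was -1.27 ± 0.13, a 2.44-fold difference of means. The ratio of C3ar1 to C5ar1 went from 25.2 ± 2.40 in NC to 7.61 ± 1.81 in RAB6A siRNA libraries, without overlap, and C3ar1 remained the highest of the 9 genes in every library.

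The formyl peptide receptors were low in NC and at a few reads under RAB6A siRNA. Fpr1, the high-affinity receptor of formyl peptides, had 0.835, 1.03 and 1.24 FPKM in NC, 0.931, 1.05 and 0.783 in SFRP2 siRNA, and 0.125, 0.0799 and 0 in RAB6A siRNA libraries. The RAB6A siRNA values rest on 0 to 6 reads. Fpr2, which also binds serum amyloid A and annexin peptides, had 1.84, 3.11 and 2.03 FPKM in NC, 2.17, 1.89 and 2.31 in SFRP2 siRNA, and 0.170, 0.245 and 0.118 in RAB6A siRNA libraries, the last with 5 to 12 reads. The log2 fold changes were -2.82 ± 0.42 for Fpr1 and -3.12 ± 0.28 for Fpr2, and with 1 added in place of 0.1 they were -0.93 and -1.48. For Fpr2, 31.5% of its 50-base stretches also occur in transcripts of Fpr1, Fpr3 or Gm5966, and Fpr3 overlaps its exons on the same strand, so its reads may be split between these genes. For Fpr1 the share was 0.0784%.

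Gpr84 had 29.9, 31.0 and 31.2 FPKM in NC, 29.5, 30.1 and 27.5 in SFRP2 siRNA, and 1.20, 1.62 and 1.42 in RAB6A siRNA libraries. All RAB6A siRNA libraries lay far below the others, with 75 to 106 reads each against at least 1651. The log2 fold change was -4.36 ± 0.11, a 21.7-fold difference of means and the sixth lowest of 12712 genes. Gpr84 was the second highest of the 9 receptors in NC, and in the RAB6A siRNA libraries it lay below Cx3cr1, Ccrl2 and C5ar1. The ratio of Gpr84 to Ccrl2 was 2.15 to 2.24 in NC and 0.0876 to 0.136 in RAB6A siRNA libraries. An antisense gene, Gm49482, overlaps Gpr84 and another, Gm33858, overlaps Cx3cr1, and it is not stated whether counting used the strand.

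Of the 8 receptors tested, all had a lower mean in RAB6A siRNA than in NC libraries, and 7 were lower without overlap, where 38.2% of all genes tested were lower without overlap. A log2 fold change under -1 without overlap was seen in 6 receptors (12.8% of all genes) and one under -2 in 5 (2.25% of all genes). The median log2 fold change was -2.93 for the receptors and 0.03 for all genes. These counts follow from how the genes were chosen. Fpr1, Fpr2 and Ccr1 moreover passed the minimum of 0.5 FPKM on average only through the NC libraries. The summed FPKM of the 9 genes was 268.8 ± 9.63 in NC and 53.0 ± 2.04 in RAB6A siRNA libraries, and the share of C3ar1 in it was 43.1% ± 2.49 in the latter. In the RAB6A siRNA libraries the order of levels was C3ar1, then Cx3cr1 and Ccrl2 together, then C5ar1, Gpr84 and the 3 low receptors Fpr2, Ccr1 and Fpr1, whose libraries overlapped.

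**Figure D2:**
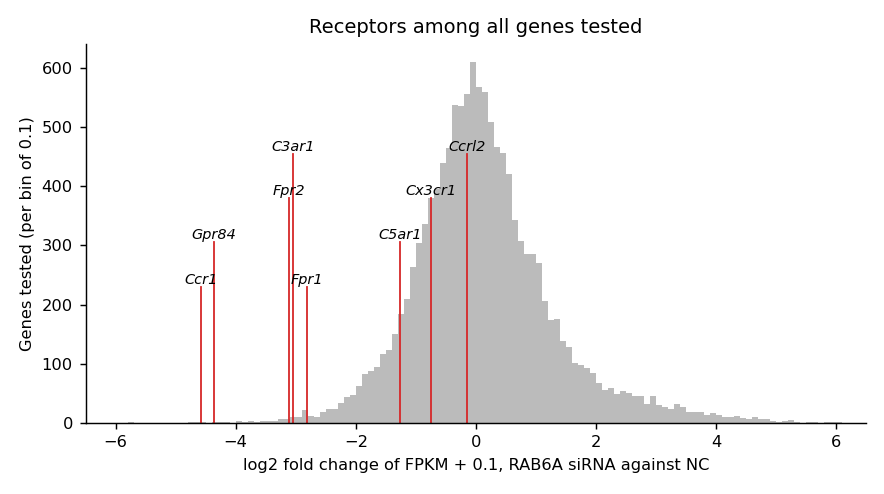
Histogram of the log2 fold change (FPKM + 0.1) of RAB6A siRNA against NC libraries for the 12712 genes tested, in bins of 0.1, with the 8 tested receptors marked. Line heights only separate the names. Ccr1 (-4.58) and Gpr84 (-4.36) lie at the far left of the distribution and Ccrl2 (-0.14) near its center.

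No receptor passed the test under SFRP2 siRNA. Limma called none of the 8 and 0 of 12017 genes (0%), whereas 2220 genes (18.5%) had an unadjusted p under 0.05 and voom on recovered reads called 45 of 11647. The study itself reported differing genes in both directions for SFRP2 siRNA in RAW264.7 cells. It used another test (DESeq2) with a fold change threshold, so the counts are not directly comparable. Ccrl2 was the only receptor whose groups did not overlap, with 12.0, 12.7 and 10.2 FPKM in SFRP2 siRNA libraries against 13.4 to 14.5 in NC. Its log2 fold change was -0.27 ± 0.09 (95% interval -0.47 to -0.06, limma adjusted p = 0.205), and 13.9% of all genes were lower without overlap. The other 7 had log2 fold changes from -0.15 to 0.03, with limma adjusted p from 0.413 to 0.915. Their intervals bound differences between these groups of libraries. They do not bound an effect of SFRP2 loss, as Sfrp2 had too few reads to check the siRNA. For C3ar1 the log2 fold change of -0.07 had an interval of -0.20 to 0.06, for Gpr84 -0.08 had -0.20 to 0.04, and for Cx3cr1 0.02 had -0.10 to 0.14. The sparsely read Fpr1 (-0.60 to 0.31) and Fpr2 (-0.55 to 0.36) were less well bounded, with Ccr1 (-0.36 to 0.27) and C5ar1 (-0.22 to 0.27) in between. The median of the 8 was -0.08 and that of all genes -0.01. Both comparisons share the NC libraries.

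**Figure D3:**
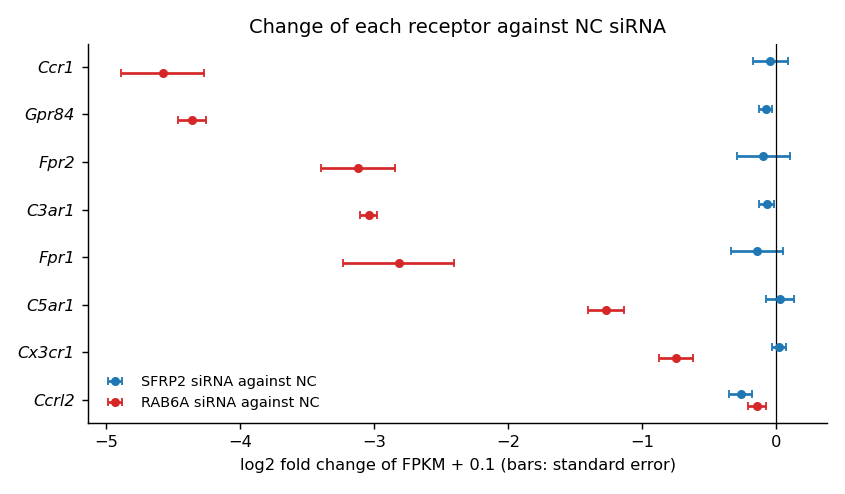
Log2 fold change (FPKM + 0.1) of the 8 tested receptors against the 3 NC libraries, for SFRP2 siRNA (blue) and RAB6A siRNA (red). Bars are standard errors from limma. SFRP2 siRNA points lie between -0.27 and 0.03, and RAB6A siRNA points run from -4.58 to -0.14.

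The other chemokine receptor genes around Ccr1 differed from it and from each other. Ccr9, Cxcr6, Xcr1, Ccr3 and Ccr2 lie within 1 Mb of Ccr1. Cxcr6, the CXCL16 receptor, 150.4 kb away, rose from 0.280 ± 0.171 FPKM in NC to 3.60 ± 0.203 in RAB6A siRNA libraries (log2 fold change 3.38 ± 0.31, limma adjusted p = 4.5e-05). It passed the minimum of 0.5 FPKM only through the RAB6A siRNA libraries, so that it had to differ and the p is no independent support. Xcr1, the XCL1 receptor that typically marks cross-presenting dendritic cells, 100.1 kb away, fell from 1.12 ± 0.107 to 0.0492 ± 0.0364 FPKM (log2 fold change -3.06 ± 0.35, limma adjusted p = 0.00013). It passed the minimum only through the NC libraries, with the same limit. Ccr9, Ccr3 and Ccr2 had group means of at most 0.183 FPKM and were not tested. Ccr2, the receptor of CCL2, had 0.167 FPKM in NC and 0.0506 in RAB6A siRNA libraries. No other chemokine receptor gene lay within 1 Mb of Ccrl2.

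**Figure D4:**
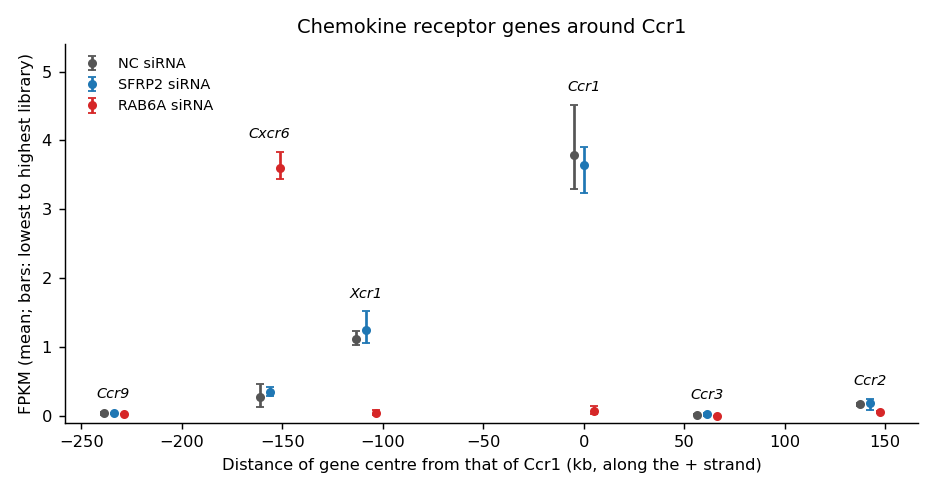
FPKM of chemokine receptor genes around Ccr1 against the distance of their centers from that of Ccr1 (kb), by group. Points are means of 3 libraries and bars run from the lowest to the highest library. Cxcr6 is high in RAB6A siRNA alone (3.60 FPKM), whereas Xcr1 and Ccr1 are near 0 there.

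Other receptors moved in both directions under RAB6A siRNA, as did all genes, of which 37.6% were called higher and 36.5% lower. Of 19 other chemokine receptors, 17 had a value and 5 were tested: Cxcr6 rose, Xcr1 and Cxcr3 fell, and Ccr10 and Cxcr5 did not pass. Cxcr3, the receptor of the interferon-induced CXCL9 and CXCL10, fell from 6.39 ± 0.920 to 3.22 ± 0.377 FPKM (log2 fold change -0.96 ± 0.13, limma adjusted p = 0.000275). Without the filter on low values 6 of 16 were called, where 10934 of all 27077 genes tested were called. Of 29 further chemoattractant, lipid and metabolite receptors, 9 were tested, of which 2 rose and 4 fell. The lowest log2 fold changes were those of Gpr18, a lipid-responsive receptor (-2.23; 14.6 ± 2.03 to 3.03 ± 0.403 FPKM), and the proton sensor Gpr65 (-1.44; 20.4 ± 1.13 to 7.48 ± 0.676 FPKM). In FPKM the nicotinic acid receptor Hcar2, named after its values were seen, fell most, from 77.4 ± 3.57 to 31.0 ± 0.426. The sphingosine 1-phosphate receptor S1pr2 (log2 fold change 0.56) and Gpr132 (0.47) rose. The median log2 fold changes of these lists were -0.17 and -0.15, against -2.93 for the 8 tested of the 9 receptors.

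Of 16 listed ligands of the receptors, 9 were tested under RAB6A siRNA: 5 rose, 1 fell and 3 did not pass, with a median log2 fold change of 0.64 (37.6% of all genes were called higher and 36.5% lower). Ccl5, a CCR1 ligand, rose from 158.8 ± 14.9 to 1558 ± 274 FPKM (log2 fold change 3.28 ± 0.14, limma adjusted p = 1.89e-06). Ccl6, a further CCR1 ligand, rose from 5.17 ± 0.163 to 17.4 ± 2.15 FPKM. Ccl3, the most abundant ligand, had 23182 FPKM in NC and 25368 in RAB6A siRNA libraries and did not pass, nor did Ccl9 (945.6 and 951.7 FPKM). Ccl7 fell from 43.5 ± 5.94 to 31.9 ± 5.26 FPKM (limma adjusted p = 0.0203), although its groups overlapped. The FPR2 ligand Saa3 rose from 2.98 ± 0.365 to 13.3 ± 2.49 FPKM, the complement gene C3 from 2.35 ± 0.121 to 5.21 ± 1.52, and Mif, which binds CXCR4, from 668.4 ± 50.1 to 1039 ± 81.2. Anxa1, source of FPR2-binding peptides, had 49.7 and 52.0 FPKM and did not pass. The remaining ligands with a value, among them Rarres2, Hc, Camp, Ccl8 and Cxcl12, had group means of at most 0.515 FPKM and were not tested. Cx3cl1, the CX3CR1 ligand, was also under the minimum, with 0.122 FPKM in NC and 0.593 in RAB6A siRNA libraries. Under SFRP2 siRNA limma called none of the 9, whereas voom, which tested 7, called Ccl5 (log2 fold change -0.45, voom adjusted p = 0.0329) and Mif (-0.39, voom adjusted p = 0.0329), both lower.

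Genes that act behind the receptors were called in both directions, at shares near the 74.1% called of all genes. Of 22 tested G protein subunits and desensitizing genes, 10 rose and 7 fell under RAB6A siRNA. Rgs10, which shortens Gi signals, rose from 4.01 ± 0.121 to 10.9 ± 1.05 FPKM and Rgs1 from 25.7 ± 3.32 to 67.2 ± 2.41, whereas Rgs18 fell from 1.15 ± 0.122 to 0.403 ± 0.146 and Rgs16 from 5.15 ± 0.473 to 2.41 ± 0.343. Rgs18 passed the minimum of 0.5 FPKM only through the NC libraries, so its call is no independent support. Of 24 chemotaxis effectors, 6 rose and 11 fell. Both lowest were parts of PI3Kγ, the lipid kinase activated by Gβγ: its regulatory subunit Pik3r5 fell from 66.2 ± 3.19 to 16.3 ± 1.53 FPKM (log2 fold change -2.02 ± 0.08, limma adjusted p = 1.54e-06) and its catalytic subunit Pik3cg from 12.6 ± 0.639 to 5.04 ± 0.204 (log2 fold change -1.31 ± 0.07, limma adjusted p = 3.53e-06). Pik3r6, a further regulatory subunit of PI3Kγ, went the other way, from 2.43 ± 0.0889 to 3.85 ± 0.126 FPKM. Its log2 fold change was 0.64 ± 0.08 (limma adjusted p = 0.000167), and it was named after its values were seen. Phospholipase Plcb3 rose from 8.03 ± 0.163 to 15.6 ± 1.15 FPKM and the Src family kinase Fgr from 0.926 ± 0.118 to 1.82 ± 0.0928. Their medians on the log2 scale were 0.07 and -0.02. Under SFRP2 siRNA limma called none of the 4 and 9 other receptors tested, the 22 G protein and desensitizing genes or the 24 effectors.

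**Figure D5:**
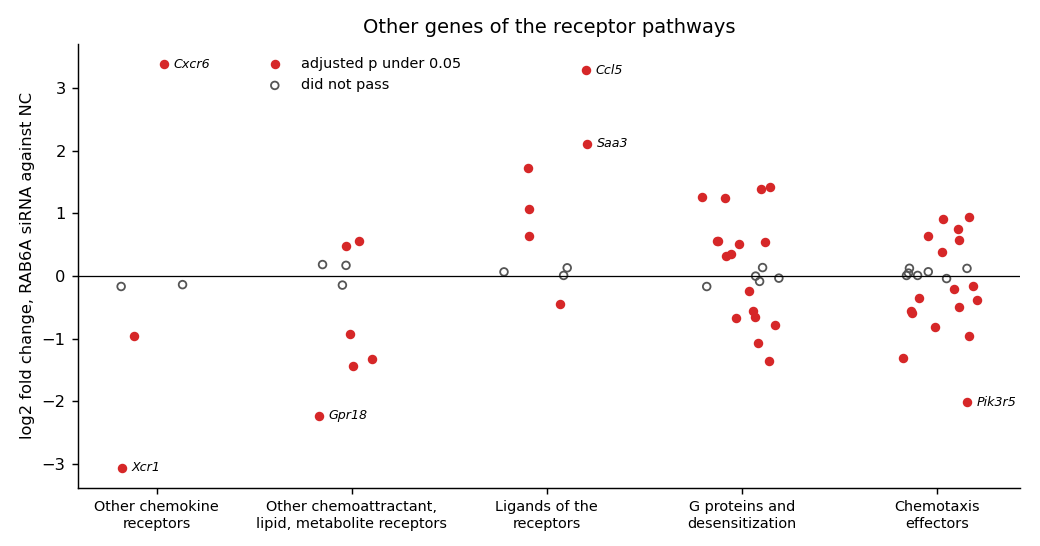
Log2 fold change (FPKM + 0.1) of RAB6A siRNA against NC libraries for the tested genes of 5 lists. Filled red points had a limma adjusted p under 0.05 and open points did not; horizontal positions within a list are arbitrary. Points lie on both sides of 0 in every list.

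Macrophage and LPS response genes were called in both directions under RAB6A siRNA. Of all genes tested, 74.1% were called, 37.6% higher and 36.5% lower. Among the 8 macrophage markers, Lyz2 (872.2 to 213.6 FPKM), Csf1r (73.6 to 27.0) and Spi1 (130.4 to 62.9) fell, Fcgr3 (28.1 to 43.1) rose, and Adgre1 (56.3 in both), Cd68, Itgam and Cd14 did not pass. Their summed FPKM was 4525 to 4995 in NC, 4004 to 4330 in SFRP2 siRNA and 3962 to 4120 in RAB6A siRNA libraries. Among the 6 LPS response genes, Acod1 (2458 to 624.4 FPKM), Il6 (95.9 to 49.8) and Tnf (1050 to 658.7) fell, Ptgs2 (491.7 to 789.4) and Il1b (15.0 to 17.4) rose, and Nos2 (340.1 to 391.6) did not pass. Of the other cell type markers with a value, Pecam1, also found on myeloid cells, rose from 0.475 to 0.830 FPKM. It passed the minimum of 0.5 FPKM only through the RAB6A siRNA libraries, so its call is no independent support. Col1a1 (0.644 and 0.542) did not pass, and Epcam had group means of at most 0.248 FPKM. The part of these changes in those of the receptors was not tested.

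The genes whose pattern over the 9 libraries most resembled that of each receptor were sought among 12549 genes. Pearson's r on log2(FPKM + 0.1) was used, which ignores level and size of change. It is given without p since the RAB6A siRNA libraries form a separate cluster that sets most of each r. For Gpr84 the most alike genes were Hsd17b12, Degs1 and Parp9 (r = 0.999 each), for C3ar1 Tm4sf19, Frmd4a and Gm20056 (0.999 each), and for Ccr1 Appbp2, Ms4a6b and Hnrnpab (0.998 each). Appbp2 had 12.4 FPKM in NC and 5.56 in RAB6A siRNA libraries, against 3.79 and 0.0699 for Ccr1. Tm4sf19 went from 34.7 FPKM in NC to 3.90 in RAB6A siRNA libraries, and Degs1, a ceramide synthesis enzyme, from 124.8 to 32.0. For Fpr2 they were Det1, Ceacam19 and Ctu1 (0.996 to 0.997), for Fpr1 Mb21d2, the TNF receptor gene Tnfrsf1b and Spata13 (0.989 to 0.992), for C5ar1 Psph, Rabl2 and Rpp14 (0.992 to 0.996), and for Cx3cr1 Cdc40, Pdap1 and Arsb (0.993 to 0.995). Ccrl2 stood apart, with Mtmr14, Nubp1 and the cathepsin gene Ctss at 0.856 to 0.898.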

How the data were processed

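Messenger RNA of 9 RAW264.7 samples was sequenced as paired-end libraries. The authors deposited FPKM per gene (fragments scaled to gene length and library size), and the submitters' processing notes name HISAT2, featureCounts and Subread; genome build and annotation are not given in the sources used here. Groups were taken from the treatment labels. Receptors and gene lists were chosen with earlier results of these data known. Identifiers were named from GENCODE M21 (27533 of 28137). Genes with a mean of at least 0.5 FPKM over the 6 libraries compared were tested on log2(FPKM + 0.1) with limma 3.58.1 (R 4.3.3; eBayes with trend, Benjamini-Hochberg adjustment over all genes tested; called at adjusted p under 0.05), so fold changes of low genes are understated. FPKM times exon length gave whole reads (within 0.03) for 27051 genes (98.2% of those named); the mates of a pair appear to be counted separately, since 67.7% to 72.6% of low values are even, so that 3 reads may be as few as 2 fragments. Intervals cover the spread between libraries, and read floors cover counting error only. Named were all 9 receptors, every ligand and marker, the 2 highest and 2 lowest called genes of each other list, the 3 most alike genes of each receptor and chemokine receptors within 1 Mb of Ccr1 or Ccrl2; some genes these rules name are not reported here. The test was checked on simulated data. Alternatives were other pseudocounts, filters, scalings, priors, GC and length correction, the replicate block, all 9 libraries in 1 fit, voom on recovered reads with library totals (added after seeing the data, in place of TMM scaling), and leaving out each library.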

Additional observations from a re-analysis of the deposited data

How the results depend on the processing

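Every receptor with a log2 fold change under -0.5 in RAB6A siRNA against NC libraries kept its direction under every alternative run, including each library left out. Ccrl2 turned to 0.077 with GC and length correction, alone and with the replicate block. Values of Ccr1 ranged from -5.94 to -2.15, of Fpr2 from -3.92 to -1.48, of Fpr1 from -4.38 to -0.93 and of Cx3cr1 from -0.90 to -0.43, the widest for genes with the fewest reads. In SFRP2 siRNA against NC, limma called 0 genes, voom 45 and the fits without 1 library 0 to 1 (1 without NC replicate 1); among ligands voom called 2. Signs turned there for values near 0: Ccr1 (-0.14 to 0.085 over fits without 1 library; 0.085 without NC replicate 1 and 0.037 without SFRP2 siRNA replicate 3), Cx3cr1 (-0.016 to 0.048; -0.016 without NC replicate 1), C5ar1 (-0.065 to 0.13; -0.032 without NC replicate 1 and -0.065 without SFRP2 siRNA replicate 2), Fpr2 (-0.24 to 0.12; 0.12 without NC replicate 2), C3ar1 (0.012 after quantile normalization) and Gpr84 (0.017 after GC and length correction, also with the replicate block). Adjusted p-values of the 8 receptors in that comparison ranged from 0.108 to 0.981 over these limma and voom fits. Of the other chemokine receptors, 6 in place of 3 were called under RAB6A siRNA without the filter on low values, which tested 16 in place of 5. That fit called 10934 of all 27077 genes tested. The cause of the other shifts was not tested. Replicate numbers did not pair the libraries (correlations of -0.06 to 0.05 between deviations of equal numbers). With the replicate block limma called 0 genes under SFRP2 siRNA and 9103 against 9418 under RAB6A siRNA. GC and length correction gave 5185 higher and 4221 lower genes, against 4777 and 4641. TMM scaling of recovered reads was not run, and library totals were used. Depth limits Cxcr4 in all groups and Ccr1, Fpr1 and Fpr2 under RAB6A siRNA.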

Other observations

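Some listed receptors lay under the minimum for testing and are given here by level alone. The sphingosine 1-phosphate receptor S1pr1 had 0.197 FPKM in NC and 0.586 in RAB6A siRNA libraries, the leukotriene B4 receptor Ltb4r1 0.0773 and 0.269, the atypical receptor Ackr4 0.0413 and 0.201, and the lymph node homing receptor Ccr7 0.0222 and 0.136. Ccr4, a CCL17 and CCL22 receptor, had 0.226 and 0.0752 FPKM, and C5ar2, the second C5a receptor, 0.0638 and 0.0198. In SFRP2 siRNA libraries these 6 genes had 0.210, 0.0507, 0.0506, 0.0253, 0.248 and 0.0630 FPKM. They were chosen after their values were seen.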
